A study of Mus musculus with 10 samples.

Results

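The genes described here are 60 mouse genes of mitosis and the spindle, taken by gene symbol from the 34607 gene names on a 1-colour Agilent expression array and carried by 84 of its 55681 probes. They were listed by name for their part in cell division, by a rule that used no measured value, though earlier results of these data were known. The tested cells were C2C12 myoblasts, a line of mouse muscle precursor cells, transfected with a synthetic mimic of miR-142-3p at 150 nM, and the control cells were the same line given a scrambled RNA at 150 nM. Both groups were kept in high-glucose medium with fetal bovine serum and transfected with a lipid reagent, an estimated 60% of the cells were reached, and RNA was taken after 72 hours. No other allele or agent is named for either group. The labels list 6 mimic and 4 scramble replicates, and every scramble title also bears a remark about re-analysis that no source used here explains.

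The file headers place the 10 scans at only 5 positions of 1 slide, each scanned on 2 days. Scans of the same position shared 21 to 77 spots marked as non-uniform, against at most 2 for any other pair. Signals did not separate the pairs so clearly, as the correlation over 10221 genes was 0.990 to 0.993 for scans of the same position and reached 0.992 for scans of different positions. On the headers and the shared spots, the mean of both scans at each position stood for 1 array, which left 3 mimic arrays and 2 scramble arrays. Nothing says that the arrays hold RNA from separate cultures, so the p-values reflect only how far these 5 arrays differ, which may be technical variation. The share of spots well above background was 25.4% to 34.6% per scan, and the number of arrays limits the precision. Of 6 myoblast markers, Myod1, Des, Cdh15 and Vim were well above background on every scan, Myf5 on 3 mimic scans and no scramble scan, and Pax7 on none.

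Entry into mitosis is driven by cyclins A and B bound to the kinase Cdk1, which Cdc25 phosphatases switch on and which works with the Polo and Aurora kinases. Chromosomes are compacted by condensin, attached to spindle microtubules through kinetochores, watched by the spindle checkpoint and released when the ubiquitin ligase APC/C, activated by Cdc20, marks securin and cyclin B for destruction, after which the cell is cleaved. Many of these genes are transcribed late in the cell cycle through promoters with CCAAT boxes and a cell cycle homology region, read by factors such as NF-Y, Mybl2 and Foxm1, and in C2C12 cells they are known to be silenced when myoblasts leave the cycle to form myotubes.

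The mature mouse miRNA of this name is shown because it defines the treatment, with its seed, bases 2 to 8, in capitals. It lies at chr11:87756903-87756925 on the plus strand of GRCm38.p6 in RefSeq. No source used here gives the sequence of the purchased mimic itself.
mmu-miR-142a-3p: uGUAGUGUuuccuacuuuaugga

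Promoter windows show what the genes share in sequence. RefSeq windows of 300 bases (GRCm38.p6, 250 before to 50 after the start) were matched for 52 of the 60 genes and searched on both strands for TTTGAA (the cell cycle homology region), CCAAT (the NF-Y box) and GGCGGGAA (an E2F form). Matches of different motifs can share letters at their ends, and each was counted. A gene counted when any of its windows held the letters. The windows of Racgap1, Ccnb2 and Anln, the 3 genes of the set with the smallest p in the comparison of mimic with scramble, are printed with TTTGAA and CCAAT, or their reverse complements TTCAAA and ATTGG, in capitals. Racgap1 lies at chr15:99651607-99651906, Ccnb2 at chr9:70421505-70421804 and Anln at chr9:22389157-22389456, all on the minus strand and printed in the direction of the gene.
Racgap1: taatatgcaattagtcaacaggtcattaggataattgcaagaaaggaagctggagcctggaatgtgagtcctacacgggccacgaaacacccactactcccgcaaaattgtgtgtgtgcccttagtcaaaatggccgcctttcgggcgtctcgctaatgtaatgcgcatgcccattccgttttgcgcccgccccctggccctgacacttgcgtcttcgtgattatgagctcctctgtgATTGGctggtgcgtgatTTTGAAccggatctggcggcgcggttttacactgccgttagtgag
Ccnb2: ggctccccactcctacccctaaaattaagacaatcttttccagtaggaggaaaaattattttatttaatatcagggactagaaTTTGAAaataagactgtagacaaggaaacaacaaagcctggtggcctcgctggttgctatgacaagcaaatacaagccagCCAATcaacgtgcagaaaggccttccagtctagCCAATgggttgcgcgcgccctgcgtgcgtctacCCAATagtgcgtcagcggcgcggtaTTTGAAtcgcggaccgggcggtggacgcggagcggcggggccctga
Anln: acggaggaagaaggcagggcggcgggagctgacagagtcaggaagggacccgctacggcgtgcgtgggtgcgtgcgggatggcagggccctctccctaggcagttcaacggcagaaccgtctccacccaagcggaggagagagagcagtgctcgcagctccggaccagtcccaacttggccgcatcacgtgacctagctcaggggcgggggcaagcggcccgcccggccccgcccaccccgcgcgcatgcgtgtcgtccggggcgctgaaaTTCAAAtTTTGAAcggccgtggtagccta

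Racgap1 held a CCAAT box on the opposite strand 12 bases before the start and a TTTGAA at base 5. Ccnb2 held 3 CCAAT boxes 87, 54 and 21 bases before the start, a TTTGAA at base 4 and another 167 bases before it. Anln held TTTGAA on the opposite strand at base 21 and on its own strand at base 28, but no CCAAT. The window of Melk, the next gene by p, is not printed and held none of the 3 motifs. The TTTGAA motif stood in the windows of 35 of the 52 genes (67.3%), against 20.2% of all 27025 genes with a window and 14.4% of the 8302 genes that were also tested on the array. CCAAT stood in 36 (69.2%), against 41.1% and 43.0%, and both motifs together in 30 (57.7%), against 7.97% and 6.00%. GGCGGGAA stood in 1 of the 52, or 1.92%, against 2.52% and 4.79%. Among the genes that rose and had a window, 8 of 17 held TTTGAA (47.1%), and among those measured that did not pass the test 21 of 26 did (80.8%). These counts are descriptions of letters in the windows and were not tested.

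Mitosis and spindle genes were higher in mimic cells. Of the 60 genes, 49 were tested because a probe of theirs stood well above background on 4 or more of the 10 scans. Between mimic and scramble 19 of these rose and none fell (38.8%; limma, adjusted p below 0.05), where 5.88% of all 13672 genes tested rose and 3.88% fell, 9.76% together. The median log2 difference was 0.80, or 1.74-fold, with a range of −0.43 to 1.37, against a median of 0.09 over all genes. In 44 of the 49 genes every mimic array lay above both scramble arrays (89.8%), which held for 25.9% of all genes tested, and the groups overlapped in the other 5. The difference was positive for 47 genes (95.9%), against 58.5% of all genes. Such a filter can favour genes that are high in the larger group, and 45 of the 49 were well above background on all 10 scans. All 19 rises lay among those 45, with a median of 0.81, and in a fit to such genes alone 28 of the 45 rose and none fell, against 6.39% and 3.76% of all 10246 genes tested there. In a population of cells, more dividing cells cannot be told apart from more of these transcripts per dividing cell.

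**Figure D1:**
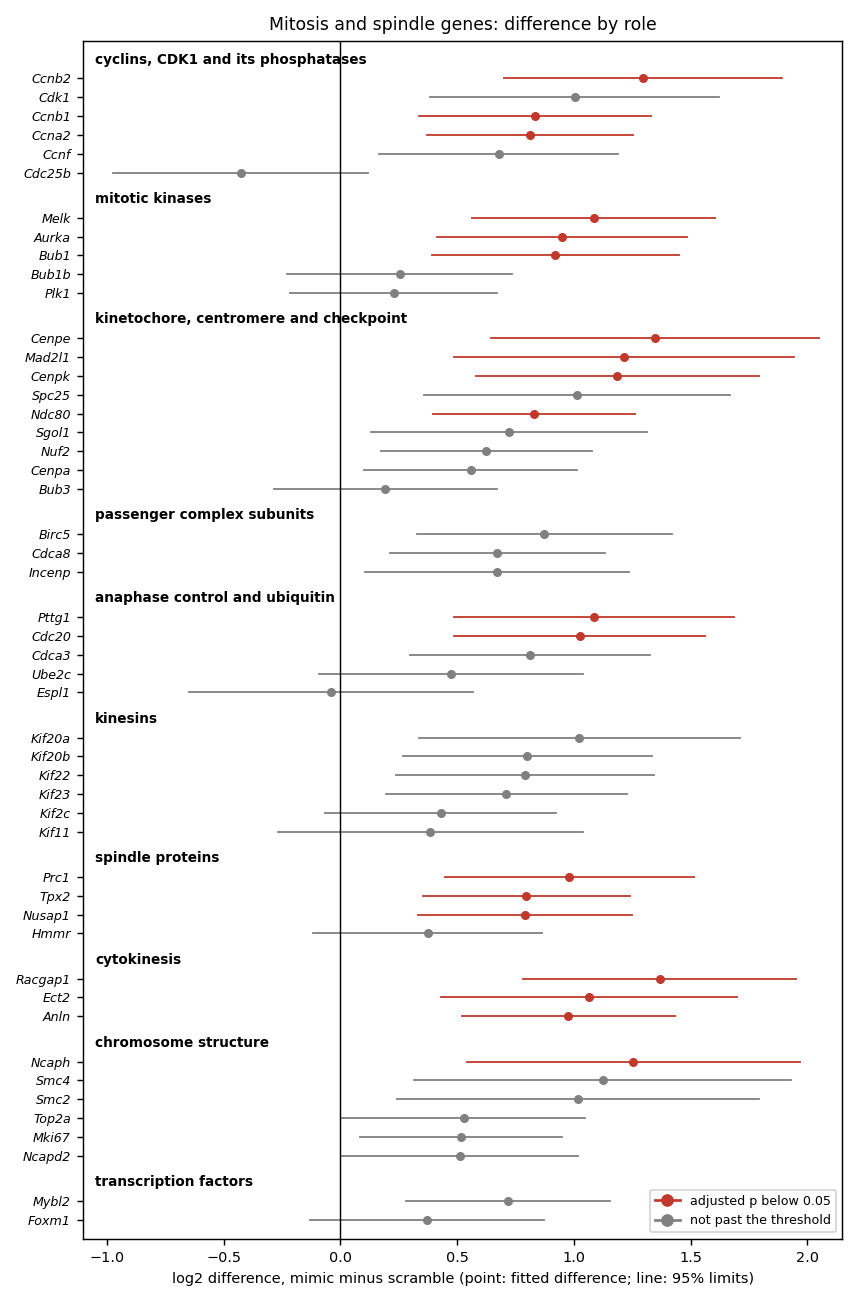
Fitted log2 difference (x axis, mimic minus scramble) of the 49 measured genes (y axis, grouped by role), with 95% limits from limma as lines; red marks an adjusted p below 0.05. The 19 rises are spread over 7 of the 10 roles, and Cdc25b at −0.43 and Espl1 at −0.04 are the genes left of 0.

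Of the cyclins, Cdk1 and the Cdc25 phosphatases, 3 of 6 measured genes rose and none fell, with a median of 0.82. Cyclin B2 (Ccnb2), a partner of Cdk1, had a normalised log2 signal of 5.14, 5.30 and 5.12 on the mimic arrays, against 4.28 and 3.50 on the scramble arrays. It was 2.46-fold higher (log2 difference 1.30 ± 0.26 SE, limma adjusted p = 0.0179), and its scramble arrays lay 0.78 apart while the mimic arrays lay close together. Cyclin B1 (Ccnb1), the main mitotic cyclin, had 3.31, 3.71 and 3.28 on the mimic arrays and 2.62 and 2.58 on the scramble arrays (0.83 ± 0.22 SE, limma adjusted p = 0.0477). Cyclin A2 (Ccna2), which acts from S phase into early mitosis, had 3.37, 3.57 and 3.43 with the mimic and 2.64 and 2.65 with the scramble (0.81 ± 0.19 SE, limma adjusted p = 0.0355). For each of these cyclins every mimic array lay above both scramble arrays, which held for 25.9% of all genes tested.

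Cdk1 itself missed the threshold. Its signal was 2.91, 3.13 and 3.05 on the mimic arrays, against 2.44 and 1.61 on the scramble arrays, a log2 difference of 1.003 ± 0.27 (SE, limma adjusted p = 0.0540) that was as large as that of several genes past the threshold but came with scramble arrays 0.84 apart. Cyclin F (Ccnf), the substrate receptor of a ubiquitin ligase, had 0.68 ± 0.22 (adjusted p = 0.101). Cdc25b, the phosphatase that starts the activation of Cdk1, ran the other way, with 3.95, 4.39 and 4.03 on the mimic arrays against 4.32 and 4.78 on the scramble arrays. Its groups overlapped and the difference of −0.43 ± 0.24 (SE) did not pass the test (limma adjusted p = 0.305). Cdc25c, its relative, was well above background on 3 mimic scans and no scramble scan and was not tested.

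Of the mitotic kinases, 3 of 5 measured genes rose and none fell, with a median of 0.92. Melk, a kinase of dividing cells, had a log2 signal of 1.55, 1.88 and 1.74 on the mimic arrays and 0.87 and 0.41 on the scramble arrays, and was 2.12-fold higher (1.09 ± 0.23 SE, limma adjusted p = 0.0213). Aurora A (Aurka), which matures centrosomes and builds the spindle, had 3.59, 4.06 and 3.68 with the mimic against 3.01 and 2.64 with the scramble (0.95 ± 0.23 SE, limma adjusted p = 0.0406). Bub1, a checkpoint kinase of the kinetochore, had 1.78, 1.98 and 1.79 against 1.21 and 0.65 (0.92 ± 0.23 SE, limma adjusted p = 0.0434). In these 3 kinases mimic array 2 was the highest array and scramble array 2 the lowest.

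Polo-like kinase 1 (Plk1), which acts at nearly every step of mitosis, differed little. Its signal was 3.88, 4.01 and 3.87 on the mimic arrays and 3.62 and 3.77 on the scramble arrays, a difference of 0.23 ± 0.19 (SE, limma adjusted p = 0.499) with 95% limits of −0.21 and 0.67, although the groups did not overlap. The checkpoint protein BubR1 (Bub1b) had 0.25 ± 0.21 (adjusted p = 0.491) with overlapping groups. Aurora B (Aurkb), the kinase of the chromosomal passenger complex, gave no signal well above background in any scan. Its probe read −2.94, −2.10 and −3.06 on the mimic arrays and −2.76 and −2.47 on the scramble arrays, so no difference was tested. The centriole kinase Plk4, the checkpoint kinase Ttk and citron kinase (Cit), which acts in cytokinesis, likewise stayed below that mark in every scan.

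Of 9 measured kinetochore, centromere and checkpoint genes 4 rose and none fell, with a median of 0.83. Cenpe, the kinesin that links kinetochores to microtubules, had a log2 signal of 4.27, 4.49 and 4.04 on the mimic arrays and 3.41 and 2.42 on the scramble arrays, and was 2.54-fold higher (1.35 ± 0.31 SE, limma adjusted p = 0.0304). Cenpk, a subunit of the inner kinetochore, had 2.00, 2.29 and 1.94 against 1.26 and 0.52 (1.19 ± 0.27 SE, limma adjusted p = 0.0280). In both genes the gap between the scramble arrays was wider than any gap among the mimic arrays. Ndc80, the microtubule-binding subunit of the outer kinetochore, had 0.73, 0.66 and 0.69 with the mimic against −0.14 and −0.13 with the scramble (0.83 ± 0.19 SE, limma adjusted p = 0.0300), with little spread in either group.

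Mad2 (Mad2l1), the checkpoint protein that holds back Cdc20, depended on the probe. The brightest probe, at chromosome 6, 66490836 to 66490895 in mm9, read 3.75, 3.67 and 3.65 on the mimic arrays and 3.04 and 1.90 on the scramble arrays (1.21 ± 0.32 SE, limma adjusted p = 0.0493). A second probe, at 66490355 to 66490414 on the same chromosome, read −0.43, −0.98 and −0.89 against −0.48 and −0.49, with overlapping groups and a difference of −0.28 ± 0.23 (SE). This probe was well above background on only 3 mimic scans and 3 scramble scans, so its low signal limits what it can show. The remaining probe was not well above background in any scan. The rise of Mad2l1 thus rests on 1 probe, and with every probe tested on its own it had an adjusted p of 0.0509 (limma).

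Nuf2, the partner of Ndc80, also had probes that disagreed. The brightest read 0.44, 0.34 and 0.48 on the mimic arrays and −0.32 and −0.09 on the scramble arrays (0.62 ± 0.20 SE, limma adjusted p = 0.0900). Another, named in the file by a cDNA clone, read −0.58, −0.55 and −0.75 against −0.55 and −0.62, a difference of −0.04. This dimmer probe was well above background on 5 mimic scans and 3 scramble scans. Spc25, of the same complex, had 1.01 ± 0.29 (SE, adjusted p = 0.0625). The centromeric histone Cenpa had 0.56 ± 0.20 and shugoshin (Sgol1), the protector of centromeric cohesin, had 0.72 ± 0.26, with adjusted p of 0.127 for each. The checkpoint protein Bub3 had 0.19 ± 0.21 with overlapping groups. Cenpf, a large outer kinetochore protein, was not well above background in any scan, and Cenpn of the inner kinetochore only in 2 mimic scans and 1 scramble scan.

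The 3 measured subunits of the chromosomal passenger complex, which corrects faulty attachments, had differences of 0.87 ± 0.24 (SE) for survivin (Birc5), 0.67 ± 0.25 for the scaffold Incenp and 0.67 ± 0.20 for borealin (Cdca8). None passed the test (limma adjusted p = 0.0563, 0.135 and 0.0757). In all 3 every mimic array lay above both scramble arrays, which held for 25.9% of all genes tested. These values come from the brightest probe of each gene. A dimmer probe of Birc5, also well above background on all 10 scans, read 1.78, 2.07 and 1.82 on the mimic arrays and 1.05 and 1.04 on the scramble arrays, and passed the test in the fit to every probe (0.84 ± 0.20 SE, limma adjusted p = 0.0370). In that fit the remaining Birc5 probe, with overlapping groups, had 0.62 ± 0.33 (SE, limma adjusted p = 0.279). The dimmer probes of Incenp and Cdca8 had 0.63 ± 0.22 and 0.61 ± 0.24 there (SE, limma adjusted p = 0.125 and 0.154).

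Of the 5 genes of anaphase control and ubiquitin transfer, Cdc20 and Pttg1 rose and none fell, with a median of 0.81. Cdc20, the activator of APC/C, had a log2 signal of 5.37, 5.38 and 5.25 on the mimic arrays, against 4.62 and 4.00 on the scramble arrays, and was 2.04-fold higher (1.03 ± 0.23 SE, limma adjusted p = 0.0310). Securin (Pttg1), a target of APC/C and the inhibitor of separase, had 5.62, 5.99 and 5.74 against 5.05 and 4.34 and was 2.12-fold higher (1.09 ± 0.26 SE, limma adjusted p = 0.0372). Separase (Espl1), the protease that cuts cohesin, had overlapping groups and a difference of −0.04 ± 0.27 (SE), measured on 3 of 6 mimic scans and 1 of 4 scramble scans. Cdca3, a regulator of mitotic entry, had 0.81 ± 0.22 (adjusted p = 0.0580), and Ube2c, the ubiquitin-conjugating enzyme of APC/C, had 0.47 ± 0.25 (adjusted p = 0.273). A slightly dimmer probe of Ube2c had 0.69 ± 0.20 (SE, limma adjusted p = 0.0737 in the fit to every probe).

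None of the 6 measured genes grouped as kinesins passed the test in either direction. All 6 differences were positive, between 0.39 and 1.02, with a median of 0.75. The kinesin Cenpe, which rose with a difference of 1.35, is counted above with the kinetochore genes. The cytokinesis motor Kif20a had 1.02 ± 0.30 (SE, limma adjusted p = 0.0705), with mimic array 2 at 3.78 and the other 2 mimic arrays at 2.95 and 2.97. Kif20b had 0.80 ± 0.23, the chromosome-arm motor Kif22 had 0.79 ± 0.24, and Kif23, which forms centralspindlin with Racgap1, had 0.71 ± 0.23 (adjusted p = 0.0686, 0.0803 and 0.0911). In these 4 motors the groups did not overlap, with every mimic array above both scramble arrays, which held for 25.9% of all genes tested. Kif11, which pushes spindle poles apart, had 0.39 ± 0.28 with overlapping groups and was well above background on 5 mimic scans and 1 scramble scan. Kif2c, a microtubule depolymerase, was well above background on 4 mimic scans and no scramble scan, so it was tested only through its mimic scans. The filter can favour positive differences in Kif11 and Kif2c. Set against the dimmest measured signal of each scramble array, the mimic mean of Kif2c as read was 1.11-fold higher. This is no lower limit, as mimic array 2 was not well above background on either scan. The fitted difference was not past the threshold (limma adjusted p = 0.254). Kif15 did not reach well above background in any scan, and Kif4 and Kif18a, which act on chromosome arms and in chromosome alignment, did so in only 1 mimic scan each.

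Of the 4 spindle proteins 3 rose and none fell, with a median of 0.79. Prc1, which bundles the microtubules of the midzone, had a log2 signal of 4.42, 4.41 and 4.45 on the mimic arrays and 3.75 and 3.14 on the scramble arrays (0.98 ± 0.23 SE, limma adjusted p = 0.0355). Tpx2, the activator of Aurora A on the spindle, had 2.49, 2.48 and 2.50 against 1.80 and 1.58 (0.80 ± 0.19 SE, limma adjusted p = 0.0387). Nusap1, a microtubule-binding protein of the spindle, had 1.93, 2.10 and 1.80 against 1.11 and 1.20 (0.79 ± 0.20 SE, limma adjusted p = 0.0450). The mimic arrays of Prc1 and Tpx2 lay within 0.04 of each other or less, far closer than the scramble arrays. Hmmr, which tethers spindle poles, had 0.37 ± 0.21 (adjusted p = 0.316).

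All 3 measured cytokinesis genes rose, with a median of 1.06. Racgap1, the GTPase-activating subunit of centralspindlin, whose promoter is printed above, had the largest fitted difference of the 49 genes. Its log2 signal was 4.42, 4.73 and 4.43 on the mimic arrays, a mean of 4.53 ± 0.18 (SD, n = 3), against 3.50 and 2.82 on the scramble arrays, a mean of 3.16 ± 0.48 (SD, n = 2). It was 2.58-fold higher (1.37 ± 0.26 SE, limma adjusted p = 0.0132), by the probe at chromosome 15, 99451768 to 99451827 in mm9. A second probe of Racgap1 read 3.25 and 3.35 on mimic arrays 1 and 3, while its spot on mimic array 2 was marked as an outlier and left out of the fit, against 2.28 and 1.80 on the scramble arrays, a difference of 1.25 (limma adjusted p = 0.0250 in the fit to every probe). Anillin (Anln), which organises the contractile ring, had 4.33, 4.52 and 4.23 with the mimic against 3.41 and 3.35 with the scramble (0.98 ± 0.20 SE, limma adjusted p = 0.0194). Ect2, the exchange factor that switches on RhoA at the cleavage furrow, had 1.99, 2.27 and 1.92 against 1.41 and 0.58 (1.06 ± 0.28 SE, limma adjusted p = 0.0483). The scramble arrays of Anln agreed closely, while those of Ect2 lay 0.83 apart.

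Of 6 measured genes of chromosome structure 1 rose and none fell, with a median of 0.77. Ncaph, the kleisin subunit of condensin I, had a log2 signal of 4.96, 4.91 and 4.75 on the mimic arrays, against 4.16 and 3.07 on the scramble arrays (1.26 ± 0.31 SE, limma adjusted p = 0.0415). The condensin ATPases Smc2 and Smc4 had differences of 1.02 ± 0.34 and 1.12 ± 0.35 (adjusted p = 0.104 and 0.0871). Their scramble arrays lay 1.11 and 1.27 apart, more than the difference between the groups in each gene. Ncapd2, another condensin I subunit, had 0.51 ± 0.22, and Ncapg, of the same condensin, did not reach well above background in any scan.

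The proliferation markers of this group did not pass the test. Mki67, which coats mitotic chromosomes and marks cycling cells, had a signal of 3.35, 3.41 and 3.33 on the mimic arrays and 2.81 and 2.89 on the scramble arrays. That is a difference of 0.52 ± 0.19 (SE, limma adjusted p = 0.135) with groups that did not overlap and little spread in either. A dimmer probe of Mki67, also well above background on every scan, had 0.34 ± 0.19 (SE, limma adjusted p = 0.312 in the fit to every probe). Topoisomerase II alpha (Top2a), which untangles sister chromatids, had 1.79, 1.92 and 1.70 against 1.01 and 1.54 (0.53 ± 0.23 SE, limma adjusted p = 0.191).

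Nor did either transcription factor that switches on late cell cycle genes. Foxm1 had a log2 signal of 0.53, 0.44 and 0.77 on the mimic arrays and 0.40 and 0.02 on the scramble arrays (0.37 ± 0.22 SE, limma adjusted p = 0.329). Mybl2 had 2.04, 2.20 and 2.13 against 1.43 and 1.39 (0.72 ± 0.19 SE, limma adjusted p = 0.0520). The mimic arrays lay above both scramble arrays for each, by little for Foxm1.

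**Figure D2:**
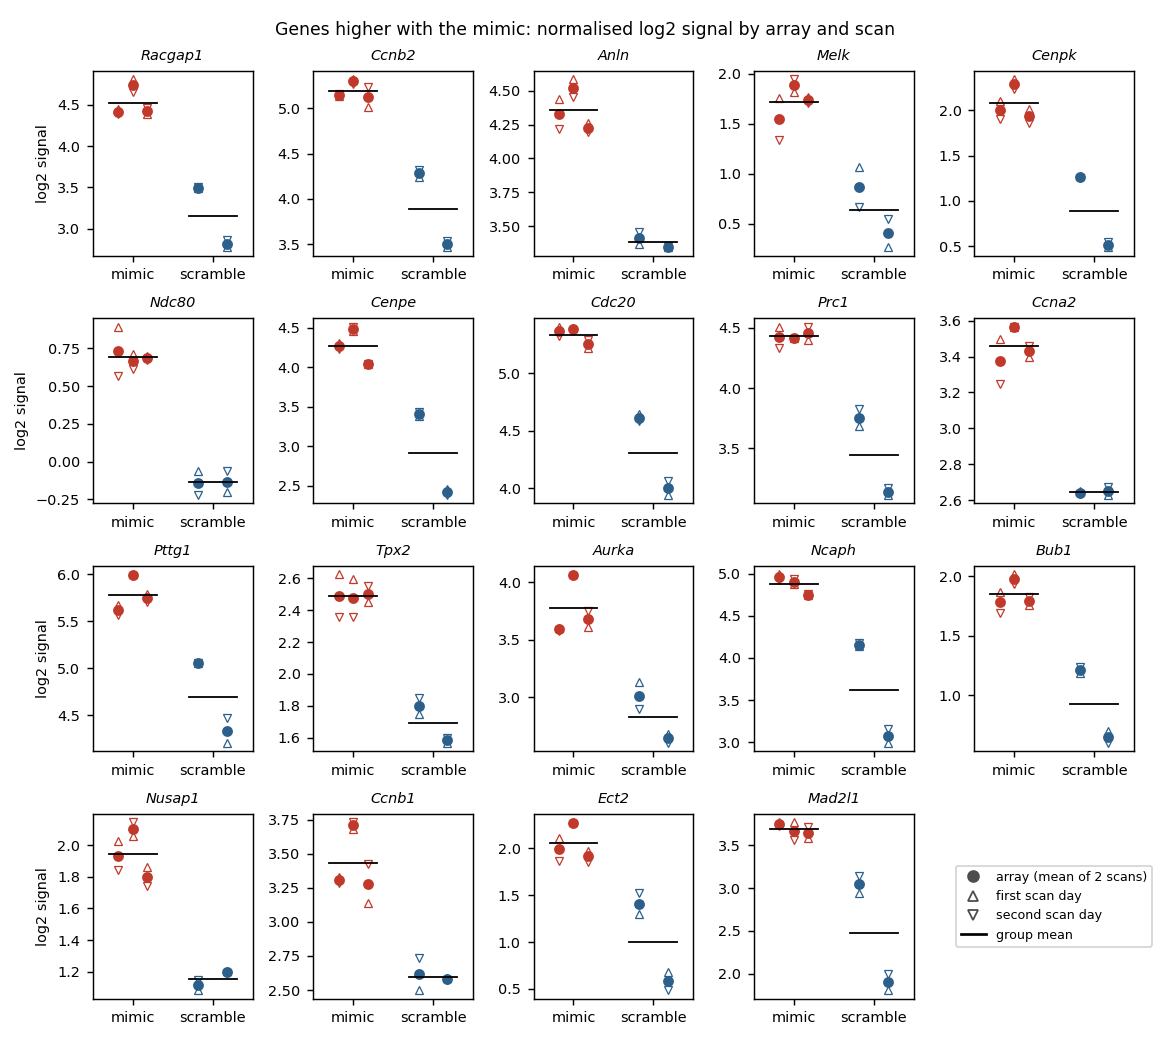
Normalised log2 signal (y axis, its own range in each panel) of the 19 genes that rose, by group (x axis). Filled points are arrays (the mean of 2 scans), triangles single scans of the first and second scan day, and bars group means; in every panel the 3 mimic arrays lie above the 2 scramble arrays, which lie furthest apart in Mad2l1 at 3.04 and 1.90.

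The arrays of a group were not alike. Of the 49 genes, 34 had their highest signal on mimic array 2 and 32 their lowest on scramble array 2. Measured from the middle between the group means, the median gene lay at 0.33, 0.54 and 0.37 on the mimic arrays and at −0.25 and −0.60 on the scramble arrays. Over all genes the same medians were −0.05, 0.12 and 0.07 on the mimic arrays and 0.02 and −0.11 on the scramble arrays. Mimic array 2 and scramble array 2 lay in the second row of the slide. Within that row, with 1 array of each group, the median difference of the genes was 1.17 and 46 of 49 were positive, against a median of 0.23 over all genes. Within the first row, with 2 mimic arrays and 1 scramble array, it was 0.62 and 47 of 49 were positive, against −0.01 over all genes. With the row as a block the median stayed 0.80, and 3 genes, Racgap1, Ccnb2 and Anln, passed the test (limma). In that fit 458 of all 13672 genes tested rose.

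**Figure D3:**
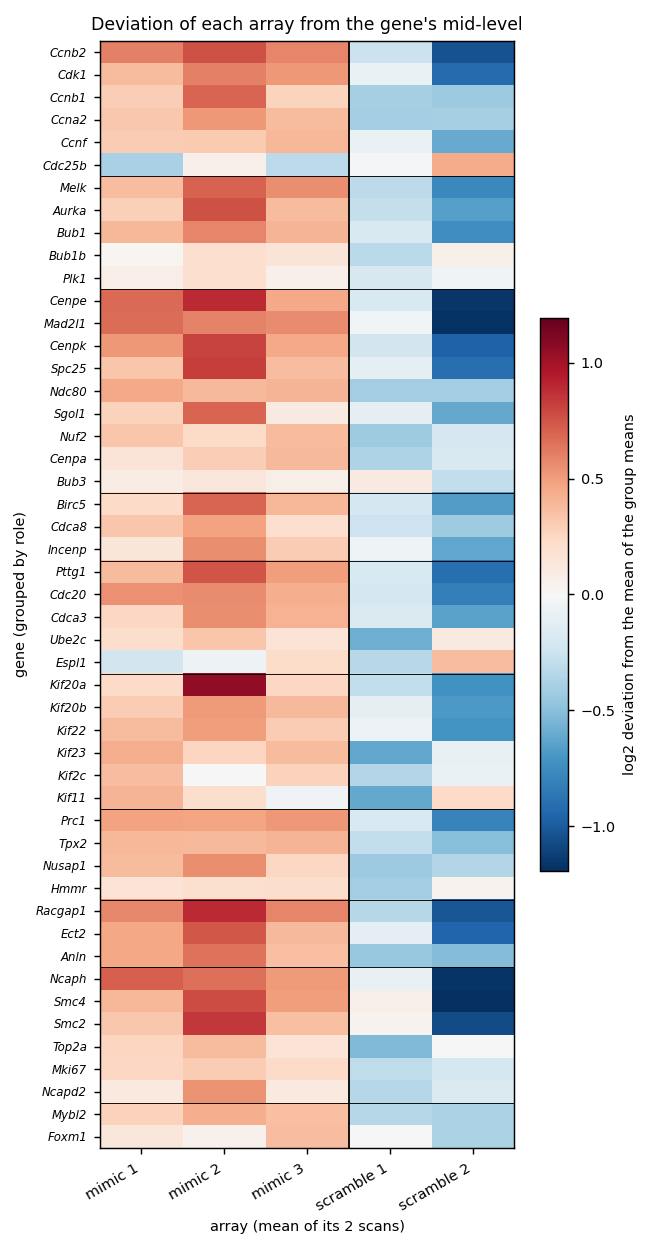
Log2 deviation of each array (columns, mimic arrays then scramble arrays) from the middle between the group means, for the 49 measured genes (lines, ordered by role); red is above and blue below. The mimic columns are mostly red and the scramble columns mostly blue, with scramble array 2 the deepest blue at a median of −0.60.

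The number of rises depended on single arrays. Without mimic array 1, 2 or 3 there were 1, 0 and 1 rises among the 49 genes, without scramble array 1 there were 33 and without scramble array 2 there were 4 (limma). The number of all genes that rose moved as well, between 345 without mimic array 2 and 2462 without scramble array 1, and the genes' median lay between 0.65 and 0.96 in these fits. Leaving out scramble array 2 lowered the difference of 4 of the 19 genes by over 1.5 times: to 0.64 for Mad2l1, 0.85 for Cenpe, 0.65 for Ect2 and 0.71 for Ncaph. Every one of the 19 calls was lost without mimic array 2 and without the filter on dim probes. That of Racgap1 was lost in those 2 settings of 20 and that of Ccnb2 in 4, while the others were lost in 6 to 12.

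The 2 scan days gave like values. The median difference of the 49 genes was 0.85 over scans of the first day and 0.76 over scans of the second, with 47 positive on each. On the first day alone 21 genes rose, 17 of them among the 19, where 857 of all 13672 genes tested rose (limma). On the second day 7 rose, all among the 19, where 504 of all genes tested rose (limma). All 10 scans were also fitted with a block for the day and a random effect of the array. There 29 rose, among them all 19, where 1119 of all genes tested rose (limma).

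**Figure D4:**
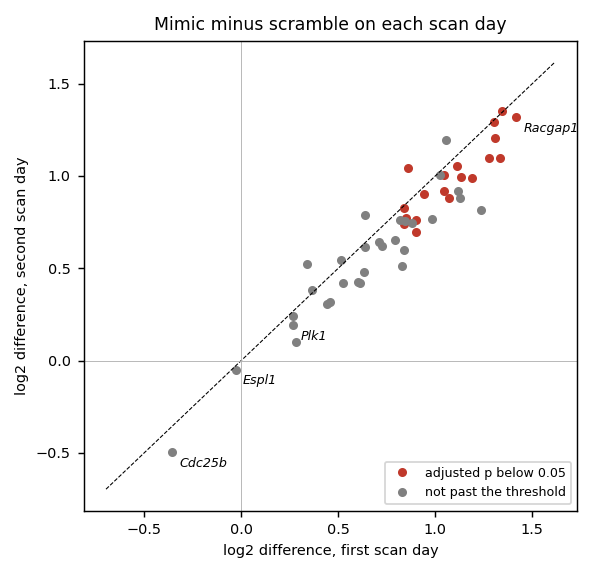
Log2 difference, mimic minus scramble, of each of the 49 genes from scans of the first day (x axis) and of the second day (y axis), which are scans of the same arrays; red marks an adjusted p below 0.05 over both days and the dashed line equal values. Racgap1, at 1.42 and 1.32, and Cenpe, at 1.35 on both days, lie at the upper end and Cdc25b at the lower end.

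Further genes of the same process, named from textbook knowledge, were set beside these, with 120 measured and 22 too dim. Of the 120, 14 rose and none fell (limma), where 5.88% of all genes rose, with a median of 0.40 and 94 positive differences. Of the 14, 2 were well above background on no scramble scan and so were tested only through their mimic scans, and 8 were well above background on all 10 scans. In a fit to genes of that last kind alone 15 of 82 rose, against 6.39% of all 10246, with a median of 0.33. Kinetochore, centromere and checkpoint genes gave 9 of the 14 rises, out of 29 measured, with a median of 0.70. By p the leading genes were Spc24, a partner of Spc25, and Ska1, which couples kinetochores to microtubules. No scramble scan measured Spc24 well above background. Its mimic mean as read was 1.41-fold above the dimmest measured signal of the scramble arrays. Its adjusted p of 0.00900 (limma) is given as a description, because it was tested only through its 4 mimic scans. Ska1 had 0.14, 0.15 and 0.44 on the mimic arrays against −0.83 and −0.79 on the scramble arrays (1.06 ± 0.20 SE, limma adjusted p = 0.0148), though it was well above background on only 1 scramble scan.

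Next came Oip5, which helps to load Cenpa, then Cenpw, Depdc1b, Knstrn, Zwint and Gtse1. No scramble scan measured Oip5 either, and it too was tested only through 4 mimic scans. Its mimic mean as read was 1.46-fold above the dimmest measured signal of the scramble arrays. The inner kinetochore subunit Cenpw had 1.70, 1.58 and 1.85 with the mimic against 0.78 and 0.90 with the scramble (0.87 ± 0.20 SE, limma adjusted p = 0.0316). The kinetochore adaptor Knstrn had 0.94 ± 0.23 and Zwint, which recruits a checkpoint complex to kinetochores, had 1.10 ± 0.27 (0.71 without scramble array 2). Depdc1b had 1.02 ± 0.24 but was well above background on 5 mimic scans and only 1 scramble scan, so the filter can favour its rise. The G2 regulator Gtse1 had 1.04 ± 0.26. Each of these 8 calls was lost when 1 or more of the mimic arrays was left out singly, and in 4 to 11 of the 19 or 20 settings run. The list of other kinesins, which also held the centriole protein Cenpj, no kinesin, had a median of −0.01 over 6 measured genes. Cenpj had 0.23 ± 0.21 (SE), and none of the 6 passed the test. Of 28 other spindle and centrosome genes 1 rose, which is no more than the 5.88% of all genes that rose.

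**Figure D5:**
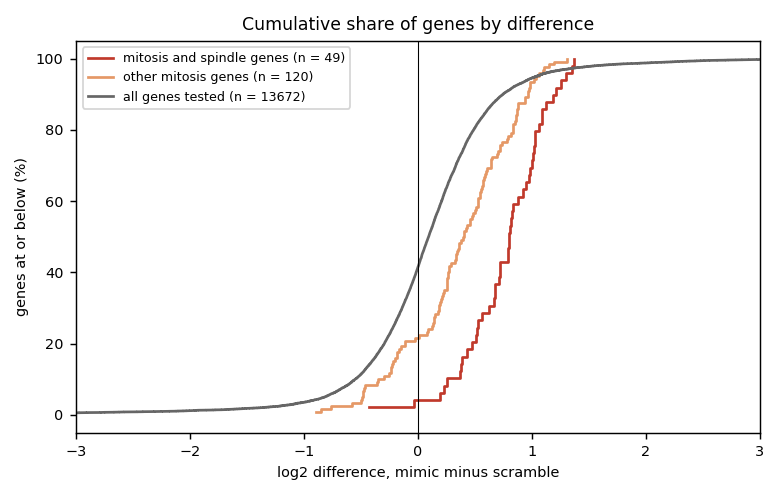
Share of genes (y axis, percent) at or below each log2 difference, mimic minus scramble (x axis), for the 49 mitosis and spindle genes, the 120 other mitosis genes and all 13672 genes tested. The curves cross 50% at 0.80, 0.40 and 0.09.

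Muscle differentiation markers were lower in mimic cells. Of 10 markers 9 fell and none rose (limma), with a median log2 difference of −4.67, and their summed linear level was 26.9 to 32.7 on the mimic arrays and 577.5 to 588.9 on the scramble arrays, in units of each array's 75th percentile. Myogenin (Myog), the factor that starts terminal differentiation, had −0.79, −0.38 and −0.70 on the mimic arrays against 6.24 and 6.66 on the scramble arrays. Of the 6 myoblast markers, Myod1, Cdh15 and Des fell, and these 3 summed to 26.6 to 29.7 on the mimic arrays and 99.6 to 138.9 on the scramble arrays. The call of Des was lost without mimic array 1, without mimic array 2, without a filter and with scaling to the array median. Vim had 0.20 ± 0.21, and with it all 6 summed to 96.7 to 126.1 on the mimic arrays and 171.4 to 210.0 on the scramble arrays. Among 7 measured genes of cell cycle exit, of which 5 had positive differences and 4 did not pass the test (median 0.12), the inhibitor Cdkn1a fell 3.13-fold and Rb1, which holds back E2F, fell 2.54-fold, while the inhibitor Cdkn2d rose 2.15-fold, a call lost without any 1 mimic array or scramble array 2. Those of Cdkn1a and Rb1 were lost without a filter, and that of Rb1 with scaling to the array median too. Cdkn1a had 3.96, 4.11 and 4.05 with the mimic and 5.41 and 5.96 with the scramble. The summed level of all 11 cell cycle exit genes was 61.9 to 75.6 on the mimic arrays and 91.5 to 101.4 on the scramble arrays, but without Cdkn1a the groups overlapped, at 46.4 to 58.3 on the mimic arrays and 39.0 to 48.9 on the scramble arrays. Of 6 leukocyte markers 5, Ptprc, Tyrobp, Lyz2, Cd52 and Coro1a, did not reach well above background in any scan. The remaining marker, Csf1r, was well above background on every scan. Its difference of 0.17 ± 0.24 (SE) did not pass the test (limma adjusted p = 0.699). The sums over all 6, most of each from Csf1r, were 1.79 to 2.18 on the mimic arrays and 1.58 to 2.17 on the scramble arrays. The part of the muscle and cell cycle exit genes in the higher mitosis genes was not tested.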

How the data were processed

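RNA of C2C12 cells was labelled with Cy3 from 150 ng, per the labels' protocols, and each deposited scanner file holds spot intensities that the authors extracted, per the file headers, with software version 12.0.0.7. Agilent Feature Extraction 10.7.3.1 appears in the submitters' processing notes. Probe coordinates are mm9, per the file headers. The deposited series matrix holds intensities too and served as an alternative.

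From these intensities the log2 processed signal minus each scan's 75th percentile was computed, spots marked as outliers were left out, and spots of a probe and the 2 scans of an array position were averaged. Probes well above background on at least 4 of 10 scans were kept, 17449 of 55681, and the brightest stood for its gene. Names were updated through RefSeq tables (28026 probes matched by accession, 3418 by symbol, 295 by synonym, 23942 left with the name in the file). The test was limma 3.58.1 (lmFit, eBayes; R 4.3.3; residual degrees of freedom 3, prior 5.28). Its p-values were adjusted by Benjamini-Hochberg over the 13672 genes tested, and 0.05 was the threshold. For genes measured in no scramble scan, the fold sets the mimic mean as read against a floor in the scramble. Per array this floor was the dimmest signal that counted as measured or, if higher, that of the probe. Mimic scans that were not measured stayed in the mean, so the fold is no lower limit. The fit was also run on simulated independent genes with variances drawn from its own prior. Those data held no row effect and no deviant array, so they cannot test the dependence on single arrays.

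Values on every array are given for genes past the threshold, genes whose probes disagree in sign, and Mki67, Cdk1, Plk1, Aurkb, Top2a and Foxm1. Mybl2, Cdkn1a and Myog are given in addition. Of the other mitosis genes at most 8 past the threshold are named, in order of p. The genes and lists were chosen with earlier results of these data known. Replicate numbers come from the titles. Mimic and scramble scans of the same number had deviations from their group means that correlated at 0.19, −0.05, −0.28 and 0.13, so the numbers were not treated as pairs.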

Additional observations from a re-analysis of the deposited data

How the results depend on the processing

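No setting gave a mitosis or spindle gene that fell, and the median of these genes minus that of all genes lay between 0.60 and 0.81 in every setting run. The median of all genes was 0.09 and became −0.04 with scaling over probes measured on all 10 scans, which split all calls into 676 rises and 670 falls, against 804 and 530. Counts given next are rises among these genes (19), rises among the other mitosis genes (14), and rises and falls among all genes (804 and 530). They were 41, 51, 2518 and 1637 with 10 scans as separate samples, 29, 23, 1119 and 670 with a block for the day and a random effect of the array, 7, 4, 504 and 436 on the second scan day, 3, 3, 458 and 353 with slide row as a block, 5, 1, 484 and 279 with scaling to the array median, 20, 6, 649 and 475 with normexp background, and 0 of 60, 0, 205 and 202 without a filter. At an unadjusted p below 0.05 (limma) 29 of these genes were higher or lower without a filter. The replicate block over 8 scans gave 33, 29, 1418 and 921, and the same 8 scans without the number, chosen after seeing the data, gave 37, 31, 1578 and 1124; the labels do not make the numbers pairs. Scaling over probes measured on all 10 scans gave 13 and 9 for the first 2 counts. With 1 array left out the counts were 0 to 33, 0 to 43, 345 to 2462 and 275 to 1212. Falls among the other mitosis genes, 0 at first, were 5 with 10 scans as separate samples, 2 with either fit to 8 scans, and 0 to 5 with 1 array left out. Cdc25b kept its negative sign in every setting. The difference of Espl1 (−0.04) was 0.0055 with slide row as a block, 0.042 with scaling to the array median, 0.080 with normexp background and −0.39 to 0.31 with 1 array left out. Over the same fits Bub3 (0.19) had −0.0091 to 0.39 and Kif11 (0.39) had −0.035 to 0.81. The cause of these changes was not tested. Espl1 was well above background on 4 of the 10 scans and Kif11 on 6, so their low signal limits what can be measured. Groups of 3 and 2 arrays are too small to test whether a single array stands apart.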
